A study of Mus musculus with 57 samples.

Results

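The genes described here, 34 mouse genes of glycolysis and of the response to low oxygen, were taken by name from a list. That list was chosen with earlier results of these data known. Of these 34 genes, 32 were among the 12887 gene rows of the table that holds all cells. Aldoc and Ddit4 were not analysed here. The list has 20 enzymes and transporters, 19 of them in the table, and 14 genes of the hypoxia-inducible factor (HIF) pathway, 13 of them in the table. The injected cells were RM1, an established mouse prostate cancer line, carrying eCFP (cerulean fluorescent protein) and luc2 (luciferase) and stained with PKH26, a membrane dye that is diluted as cells divide. They had been given to C57BL/6 mice by intracardiac injection, and 57 sorted cells were recovered from bone 13 to 26 days later. Among these, 6 dormant cells were low in eCFP and held leukocyte transcripts, as described below. Whether those 6 are RM1 cells was not tested. The dormant state was sorted as cells that kept the dye (PKH26+, 28 cells of 6 mice) and the proliferating state as cells without it (PKH26-, 29 analysed here, of 6 mice). All 8 mice received the same labelled line and no other treatment, and 4 of them gave both states. Each library batch held a single state, and the effects of batch and of state cannot be told apart.

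Glycolysis splits glucose into pyruvate in the cytosol and gives ATP without oxygen. Glucose enters through transporters such as Slc2a1 and is trapped by hexokinase, phosphofructokinase commits it to the pathway, and the later steps yield ATP and pyruvate, which Ldha turns into lactate for export by monocarboxylate transporters. The transcription factor HIF-1, of which Hif1a is the regulated subunit, is marked for destruction by prolyl hydroxylases of the Egln family while oxygen is present. In hypoxia it raises many glycolytic genes together with Vegfa, Bnip3 and others, and bone marrow is known as a tissue of low oxygen tension.

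HIF-1 binds DNA at a short core, ACGTG or GCGTG. To show these cores in genes that the comparisons turn on, the 250 bases before the annotated start are given for Ldha, Gapdh, Tpi1 and the lactate exporter Slc16a3, and for the HIF pathway genes Bnip3 and Egln3. They are RefSeq promoter sequences of GRCm38.p6, written 5′ to 3′ on the strand of the gene, with each core on either strand in capitals (CACGT and CACGC are the same cores read from the other strand, and cores may overlap). The window of Ldha, at chr7:46845554-46845803 on the plus strand, holds 5 cores, and a second annotated start, with the window chr7:46846832-46847081 on the plus strand, holds 1. Bnip3, at chr7:138909507-138909756 on the minus strand, holds 5 cores. Gapdh, at chr6:125165774-125166023 on the minus strand, and Slc16a3, at chr11:120948817-120949066 on the plus strand, hold 2 each. Egln3, at chr12:54203875-54204124 on the minus strand, holds 1, and Tpi1, at chr6:124814159-124814408 on the minus strand, holds 0. The starts are those of RefSeq, while the gene spans given below are from GENCODE and begin further upstream for Ldha, Gapdh and Tpi1. The windows of Ldha and Gapdh thus lie inside these spans, and that of Tpi1 lies partly inside.
Ldha: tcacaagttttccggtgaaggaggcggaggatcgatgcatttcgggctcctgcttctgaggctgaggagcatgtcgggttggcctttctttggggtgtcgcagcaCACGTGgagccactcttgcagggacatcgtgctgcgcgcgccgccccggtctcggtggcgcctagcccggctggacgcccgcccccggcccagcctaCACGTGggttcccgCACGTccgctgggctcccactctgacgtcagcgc
Gapdh: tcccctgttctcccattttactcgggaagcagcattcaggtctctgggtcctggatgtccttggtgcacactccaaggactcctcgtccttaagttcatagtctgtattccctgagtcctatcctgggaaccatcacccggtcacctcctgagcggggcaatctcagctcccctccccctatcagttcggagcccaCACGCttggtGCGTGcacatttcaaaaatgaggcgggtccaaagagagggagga
Tpi1: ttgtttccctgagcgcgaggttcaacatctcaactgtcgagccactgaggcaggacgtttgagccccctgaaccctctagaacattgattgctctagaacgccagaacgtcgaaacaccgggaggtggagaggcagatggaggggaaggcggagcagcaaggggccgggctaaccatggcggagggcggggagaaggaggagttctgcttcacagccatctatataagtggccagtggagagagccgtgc
Slc16a3: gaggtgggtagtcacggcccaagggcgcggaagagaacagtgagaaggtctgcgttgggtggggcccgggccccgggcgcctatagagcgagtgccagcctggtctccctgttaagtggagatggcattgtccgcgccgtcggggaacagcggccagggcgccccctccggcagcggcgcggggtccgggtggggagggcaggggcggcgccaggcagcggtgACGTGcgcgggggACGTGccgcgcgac
Bnip3: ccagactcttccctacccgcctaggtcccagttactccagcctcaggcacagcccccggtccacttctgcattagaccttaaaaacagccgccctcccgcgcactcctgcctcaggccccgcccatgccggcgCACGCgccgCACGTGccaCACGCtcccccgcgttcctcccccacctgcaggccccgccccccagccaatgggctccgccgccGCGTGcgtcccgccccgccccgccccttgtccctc
Egln3: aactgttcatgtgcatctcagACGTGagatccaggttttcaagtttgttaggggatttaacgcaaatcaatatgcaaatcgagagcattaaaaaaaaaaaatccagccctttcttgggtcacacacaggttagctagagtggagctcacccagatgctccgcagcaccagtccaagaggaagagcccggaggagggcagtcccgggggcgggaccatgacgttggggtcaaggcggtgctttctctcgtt

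Of the 34 genes 32 were matched to the promoter table, where a gene with several starts counted by its window with most cores. At least 1 core was present for 18 of 20 enzymes and transporters and for 12 of 12 HIF pathway genes, against 41.5% of the 27025 genes of the promoter table and 63.2% of the 8774 of them tested here. At least 3 cores were present for 30.0% of the enzymes and transporters and for 41.7% of the HIF pathway genes, against 14.9% of the genes tested here. A core is a match of letters and not a measured binding site.

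The values are normalised reads per gene and cell, and the mouse was the replicate. The log2(value + 1) of a gene was averaged over cells of the same mouse and state, giving 6 dormant and 6 proliferating means. Levels and differences are on this scale, and differences are dormant minus proliferating, unless a value is named as normalised reads or as a level per kilobase. Reads per cell were 945351 to 5306777, and genes above 0 were 2399 to 10509. A low-label cell is one with eCFP under 100, which held for 6 dormant and 0 proliferating cells. In the low-label cells Luc2 was 2.27 to 230.5 normalised reads and Krt8, a keratin of this line, 0 to 9.40. The medians of Luc2 and Krt8 were 9488 and 3801 in the 22 labelled dormant cells and 7014 and 3023 in the proliferating cells. Ptprc, the leukocyte antigen CD45, was above 0 in 5 of 6 low-label cells, and Lyz2, a lysozyme of monocytes and neutrophils, had a median of 168437 normalised reads there. A leukocyte-rich cell is one where 5 or more of the 18 listed pan-leukocyte genes were above 0, which held for 15 dormant and 6 proliferating cells. Per cell, 1 to 18 of these genes were above 0 in dormant cells, with a summed level of 935 to 67251 normalised reads, against 1 to 14 genes and 762 to 10059 normalised reads in proliferating cells. Arhgdib, Cytip and Cd53 of this list are also present in RM1 cells. All 6 low-label cells were leukocyte-rich, so leaving out both kinds left the same cells as leaving out the leukocyte-rich ones. The dormant means of mice 244 and 360 came from low-label cells alone.

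The comparison asks whether the 2 states differ in these genes, with all cells and with low-label and leukocyte-rich cells left out. Over all cells most glycolytic and HIF pathway genes had lower means in dormant cells, Gapdh with no overlap between the states, while the lactate exporter Slc16a3 and the mitochondrial autophagy receptor Bnip3l had higher ones, and no member passed the test. Of the 19 enzymes and transporters 15 had a negative difference, with a median of -0.68, and of the 11 HIF pathway genes tested 9 had one, with a median of -1.85. Over all 11843 genes tested the median was -0.35, and 63.1% were negative. In limma with Benjamini-Hochberg adjustment 0 of the 30 members tested, and 0% of all genes, passed at 0.05, and the smallest adjusted p was 0.437. An unadjusted p under 0.05 was found for 6 members with a negative difference (Gapdh, Tpi1, Pfkp, Ldha, Hif1a and Egln3), against 6.22% of all genes, and for 0 with a positive one, against 3.28%. The count of 6 was 1 with only means of at least 2 cells, 2 with means weighted by their cells, 3 with the log2 of the mean value, 3 without mouse 360, 4 without mouse 244, 4 without mouse 369 and 9 without mouse 1185. Over all genes the count with a negative difference at that p, 737 of 11843 as reported, moved as well. In the same order it was 541 of 11763, 744 of 11843, 367 of 11843, 326 of 11592, 484 of 11772, 497 of 11117 and 843 of 11439. The count of members was 3, against 486 of 11843 genes, when cells were scaled by the median of ratios. That scaling put the median of all genes at -0.16, a shift of 0.19, and left 12 of 19 enzymes and transporters with a negative difference. Of the alternatives on recovered reads, edgeR called 0 genes and DESeq2 called 302 (2.55%), none of them a member.

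**Figure D1:**
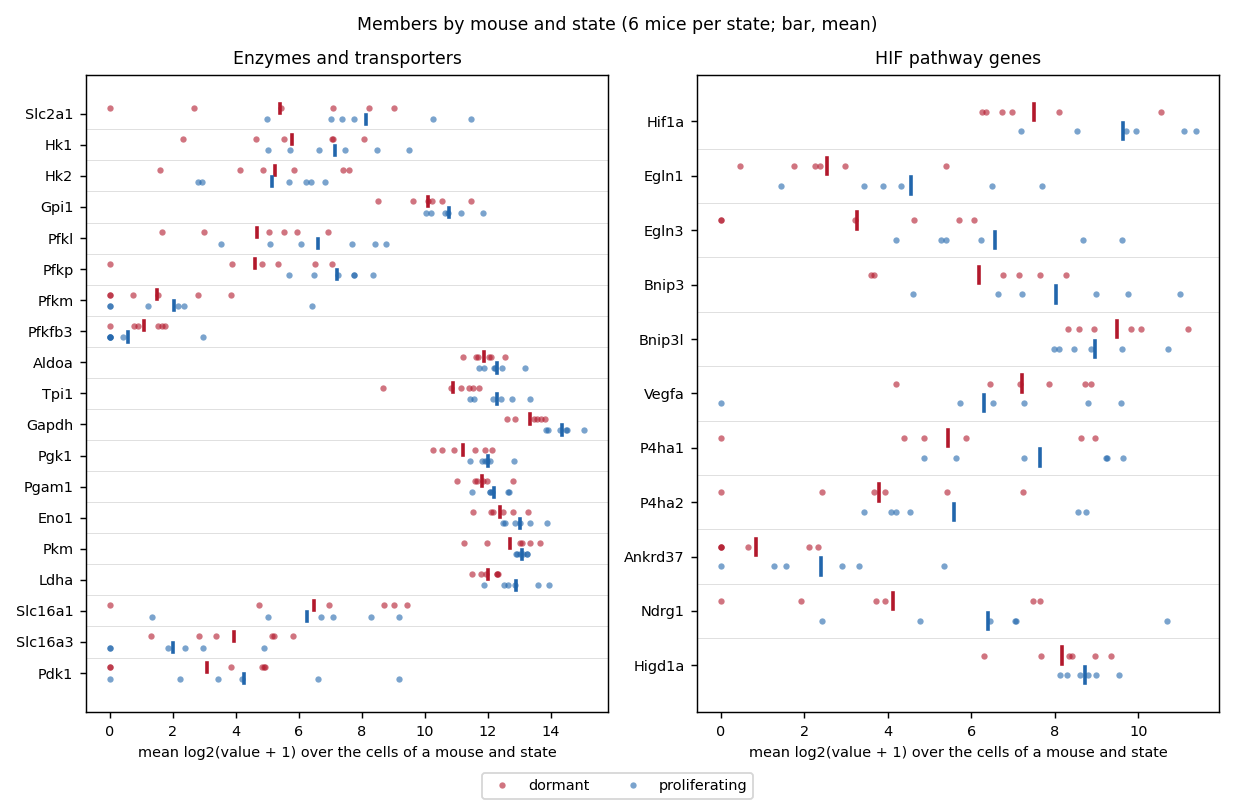
Mean log2(value + 1) of each tested member over cells of the same mouse and state (x axis), by gene (y axis), with 6 dormant and 6 proliferating means per gene. The 6 dormant means of Gapdh lie between 12.60 and 13.83, below all 6 proliferating means, while the means of the other members overlap between the states.

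Among genes of glucose entry, Slc2a1, the glucose transporter GLUT1, had a lowest, median and highest mouse mean of 0, 6.27 and 9.01 in dormant cells, against 4.99, 7.56 and 11.47 in proliferating cells. The difference was -2.73 (SE 1.38, limma adjusted p = 0.549), and the groups overlapped, with the dormant cell of mouse 244 at 0. Hk1, the broadly expressed hexokinase, had 2.33, 6.29 and 8.09 in dormant cells, against 5.02, 7.04 and 9.51 in proliferating cells, a difference of -1.35 (SE 1.12, adjusted p = 0.742). Hk2, the hexokinase that hypoxia and insulin are known to raise, averaged 5.24 ± 2.25 in dormant cells and 5.15 ± 1.81 in proliferating cells (SD, n = 6 each). Per kilobase of exon, Hk1 made up a median of 63.1% of the sum of both hexokinases in dormant cells, with a range over mice of 26.8% to 90.0%. In proliferating cells its share had a median of 63.1% and a range of 48.8% to 87.9%, so both medians were close and the spread over mice was wide.

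In upper glycolysis, the steps that spend ATP, 6 of 7 genes had a negative difference. Tpi1, the triose phosphate isomerase (chromosome 6, 124810586 to 124814296, GRCm38), had 8.68, 11.27 and 11.73 in dormant cells, against 11.43, 12.29 and 13.33 in proliferating cells. The difference was -1.39 (SE 0.50, unadjusted p = 0.0108, limma adjusted p = 0.443), and the groups overlapped only through the proliferating means of mice 369 and 452. Pfkp, the platelet-type phosphofructokinase, had 0, 5.08 and 7.07 in dormant cells, against 5.70, 7.49 and 8.35 in proliferating cells, a difference of -2.61 (SE 1.16, adjusted p = 0.479), and of 0.13 with edgeR on recovered reads. Pfkl, the liver-type enzyme, differed by -1.92 and Pfkm, the muscle-type enzyme, by -0.55. Per kilobase, Pfkl made up a median of 49.6% of the sum of the 3 isoforms in dormant cells, against 47.5% in proliferating cells, and Pfkp 36.2%, against 42.9%. Pfkfb3, which makes the activator of phosphofructokinase, was detected in 8 of 28 dormant cells and in 4 of 29 proliferating ones, and differed by 0.54. Gpi1, the glucose phosphate isomerase, and Aldoa, the aldolase, were detected in every cell and differed by -0.68 and -0.41, and Aldoa by 0.026 under scaling by the median of ratios.

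In lower glycolysis, the steps that yield ATP, all 5 genes had a negative difference. Gapdh, which oxidises glyceraldehyde phosphate (chromosome 6, 125161715 to 125166467), had 12.60, 13.52 and 13.83 in dormant cells, against 13.84, 14.40 and 15.07 in proliferating cells. The difference was -1.02 (SE 0.29, unadjusted p = 0.00210, limma adjusted p = 0.437). Gapdh was the single member with all dormant means below all proliferating means, which 0.363% of all genes had. Its groups overlapped when cells were scaled by the median of ratios or to the same total. They also overlapped with the log2 of the mean value and with the median over cells. In mouse 1185 its mean was 13.69 in dormant and 14.49 in proliferating cells, in mouse 360 12.87 and 14.51, in mouse 369 13.57 and 13.84, and in mouse 452 13.83 and 13.91. The gap was thus wide in mice 1185 and 360 and narrow in mice 369 and 452. Pgk1, the first ATP-forming step, had 10.25, 11.26 and 12.13 in dormant cells, against 11.44, 11.94 and 12.84 in proliferating cells, a difference of -0.79 (SE 0.43, adjusted p = 0.589). Eno1, the enolase, differed by -0.63. Pgam1, the mutase, and Pkm, the pyruvate kinase, differed by -0.37 and -0.36, and by 0.066 and 0.076 under scaling by the median of ratios. Several of these genes have near-identical copies in the mouse genome that can share reads with them. Of the copies in the table, Pgk1-rs7 differed by -1.37, Eno1b by -0.77, Ldha-ps2 by -0.49 and Pgam1-ps2 by -0.29, each with overlapping groups.

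Of the genes that set the fate of pyruvate and lactate, Ldha, the lactate dehydrogenase subunit that favours lactate (chromosome 7, 46841475 to 46855627), had 11.50, 12.11 and 12.31 in dormant cells, against 11.87, 12.75 and 13.94 in proliferating cells. The difference was -0.88 (SE 0.38, unadjusted p = 0.0271, limma adjusted p = 0.470), and the proliferating mean of mouse 452 alone lay within the dormant range. Slc16a3, the lactate exporter MCT4, had 1.31, 4.26 and 5.83 in dormant cells, against 0, 2.12 and 4.90 in proliferating cells, a difference of 1.94 (SE 1.15, adjusted p = 0.627). Mouse 369 had the opposite order, with a difference of -2.08, while mice 1185, 360 and 452 had 2.83, 1.31 and 1.54. In mouse 369 the dormant and proliferating means were 3.53 and 4.90 without low-label cells, and 2.36 and 4.28 without leukocyte-rich cells. Slc16a3 was detected in 21 of 28 dormant cells (exact Clopper-Pearson limits of 55.1% and 89.3% at 95%) and in 17 of 29 proliferating ones (38.9% and 76.5%). Slc16a1, the transporter MCT1 that moves lactate in either direction, averaged 6.47 ± 3.61 in dormant cells and 6.26 ± 2.80 in proliferating cells (SD, n = 6 each). Per kilobase, Slc16a3 made up 4.44% to 100% of the sum of both transporters in dormant cells, with a median of 7.54%, against 0% to 4.52% and a median of 3.08% in proliferating cells. Its highest share came from mouse 360, whose dormant cells were all low-label and had Slc16a1 at 0. Pdk1, which keeps pyruvate out of the mitochondrial cycle, averaged 3.08 ± 2.42 in dormant cells and 4.28 ± 3.25 in proliferating cells.

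All 3 genes of oxygen sensing had a negative difference. Hif1a (chromosome 12, 73901375 to 73947530) had 6.26, 6.85 and 10.54 in dormant cells, against 7.20, 9.83 and 11.38 in proliferating cells, a difference of -2.15 (SE 0.86, unadjusted p = 0.0200, limma adjusted p = 0.456). Mouse 1185 had the opposite order, with 10.54 in dormant and 7.20 in proliferating cells. Egln3, a prolyl hydroxylase that is itself a HIF target, had 0, 3.92 and 6.07 in dormant cells, against 4.19, 5.82 and 9.60 in proliferating cells, a difference of -3.29 (SE 1.33, unadjusted p = 0.0212, adjusted p = 0.456). The dormant means of mice 244 and 360, from low-label cells, were 0. Within the 4 shared mice Egln3 was lower in dormant cells in 1, mouse 360. Egln1, the main oxygen sensor of the family, averaged 2.53 ± 1.64 in dormant cells and 4.55 ± 2.24 in proliferating cells and was lower in dormant cells in 4 of 4 shared mice.

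Of the HIF targets 6 of 8 tested had a negative difference. Ankrd37, an ankyrin repeat protein induced by HIF-1, had 0, 0.32 and 2.32 in dormant cells, against 0, 2.23 and 5.35 in proliferating cells, a difference of -1.55 (SE 0.91, limma adjusted p = 0.620). P4ha1, a collagen prolyl hydroxylase, had 0, 5.37 and 8.96 in dormant cells, against 4.86, 8.24 and 9.63 in proliferating cells, a difference of -2.19 (SE 1.33, adjusted p = 0.637). The groups of both overlapped widely. Its paralog P4ha2 differed by -1.81, Ndrg1, a stress-responsive gene, by -2.29, Bnip3, a mitochondrial autophagy receptor, by -1.85 and Higd1a, a mitochondrial factor, by -0.55. The other two targets had positive differences. Vegfa, the angiogenic growth factor, averaged 7.21 ± 1.74 in dormant cells and 6.31 ± 3.40 in proliferating cells, and Bnip3l, the paralog of Bnip3 also known as NIX, 9.49 ± 1.08 in dormant cells and 8.95 ± 1.04 in proliferating cells (SD, n = 6 each). Car9 and Adm, a carbonic anhydrase and a peptide hormone that are strongly induced by hypoxia, were above 0 in too few cells to be tested. Car9 was detected in 3 of 28 dormant cells, 2 of them low-label, and in 0 of 29 proliferating cells, a count that leaves room for 10.3%. Adm was detected in 0 of 28 dormant cells, which leaves room for 10.7%, and in 3 of 29 proliferating cells. All limits on shares of cells cover counting error only.

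Bnip3 and Bnip3l, paired after their values were seen, had differences of opposite sign. Per kilobase, Bnip3 made up 9.41% to 51.6% of their sum in dormant cells, with a median of 36.5%, against 35.4% to 77.2% and a median of 60.6% in proliferating cells, and the ranges overlapped. In the 4 shared mice, 1185, 360, 369 and 452 in this order, Bnip3l differed by 2.08, 3.10, 0.49 and 0.95. Bnip3 differed by 3.67, 0.10, -3.54 and -5.40. Bnip3l was thus higher in dormant cells of all 4 mice, the single member tested that was, against 1.41% of all genes, and Bnip3 went both ways. With the mouse as a block Bnip3l differed by 1.66 (SE 0.68, unadjusted p = 0.0297, limma adjusted p = 0.536). It differed by 1.18 (unadjusted p = 0.0769, limma) without low-label cells, where mouse 360 no longer has dormant cells, by 1.18 (p = 0.164) without mouse 360 and by 1.52 (p = 0.0893) without mouse 1185, so that none of these was under 0.05 before adjustment.

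**Figure D2:**
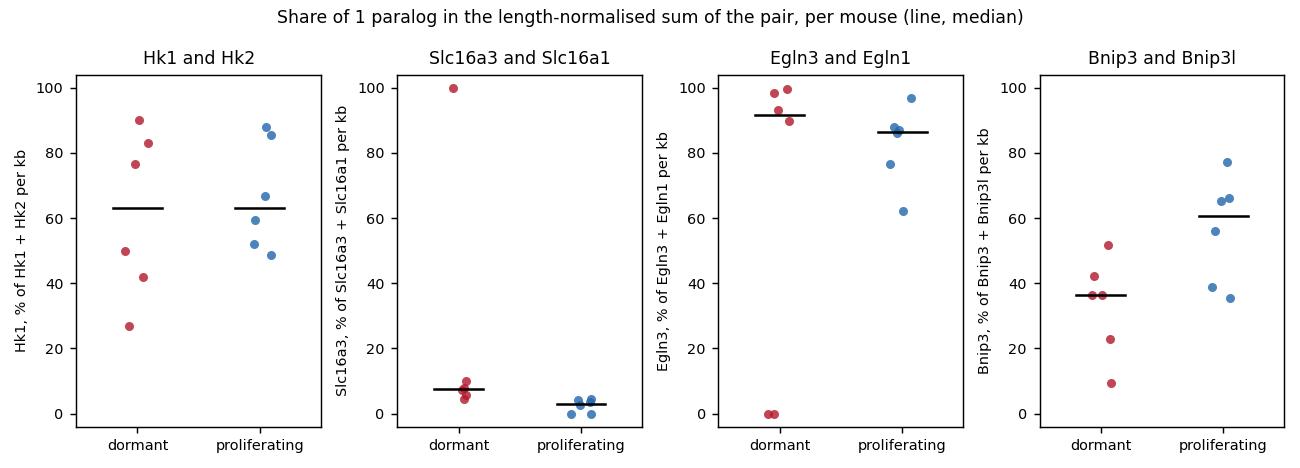
Share of a paralog in the length-normalised sum of its family (y axis, %), 1 point per mouse, with dormant mice left of proliferating mice. Bnip3 has a median of 36.5% in dormant and 60.6% in proliferating mice with overlapping ranges.

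Levels per kilobase of exon, as means over mice of normalised reads, put Gapdh first in both states, at 2843 ± 944 in dormant cells and 6102 ± 3332 in proliferating cells (SD, n = 6 each). In proliferating cells Pgam1 (2744), Ldha (2651), Tpi1 (2196), Pgk1 (2121), Aldoa (2035), Pkm (1777) and Eno1 (1724) followed, each within the spread of its neighbours. In dormant cells the order after Gapdh was Pgam1 (2072), Pkm (1654), Ldha (1640.5), Aldoa (1384), Eno1 (1372), Pgk1 (1263) and Tpi1 (864 ± 417). Tpi1 thus stood last of these abundant enzymes in dormant cells, again within the spread. The HIF pathway genes and the early enzymes were far less abundant: Bnip3 had 119.5 ± 64.0 in dormant and 480.4 ± 723 in proliferating cells, Hif1a 139 ± 117 and 256 ± 135, and Hk1 25.9 ± 16.6 and 34.9 ± 28.5. Without mouse 268, whose level of Bnip3 was the highest, the proliferating level was 189 ± 126 for Bnip3, 217 ± 106 for Hif1a, 24.2 ± 12.9 for Hk1 and 4794 ± 1019 for Gapdh (SD, n = 5), which put Hk1 below its dormant level.

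In the 4 mice with both states, with the mouse as a block, 16 of 19 enzymes and transporters and 9 of 11 HIF pathway genes had a negative difference, with medians of -0.70 and -0.99. Over all 11565 genes the median was -0.72, 76.5% were negative and 0% passed in limma. An unadjusted p under 0.05 was found for 2 members with a negative difference, Pfkl (-2.86, SE 1.10) and Ldha (-0.93, SE 0.41), against 8.21% of all genes. It was found for 1 with a positive one, Bnip3l, against 1.03%. Gapdh differed by -0.70 (SE 0.34, limma adjusted p = 0.541). Gapdh, Tpi1, Aldoa, Ldha, Pfkl and Egln1 were lower in dormant cells in 4 of 4 mice, 6 of the 30 members tested, against 15.2% of all genes. The differences of Gapdh, Tpi1 and Aldoa (-0.26) were smaller in size than the median over all genes. For Tpi1 the differences in mice 1185, 360, 369 and 452 were -0.45, -1.58, -0.030 and -0.41. Slc16a1 differed by -2.01 within these mice, against 0.21 over all mice. Without low-label cells 3 shared mice remained, with medians of -0.16 for the enzymes and transporters and -0.23 for the HIF pathway genes, against -0.12 for all genes, and without leukocyte-rich cells these were -0.29, 0.27 and -0.24.

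Leaving out the 6 low-label cells removed the dormant means of mice 244 and 360 and left 4 dormant against 6 proliferating means. The enzymes and transporters then had a median of -0.39 (13 of 19 negative) and the HIF pathway genes one of -0.68 (9 of 11 negative), while the median over all 11595 genes was 0.09, with 45.5% negative. In limma 0% of genes passed. Gapdh was the single member with a negative difference at an unadjusted p under 0.05 (-0.61, SE 0.25, p = 0.0261, limma adjusted p = 1.00), against 0.509% of all genes. Slc16a3 was the single one with a positive difference (2.62, SE 1.20, p = 0.0408, limma adjusted p = 1.00), against 1.45%. Gapdh had 13.29, 13.76 and 14.17 in these dormant cells, against 13.84, 14.40 and 15.07 in proliferating cells, and the groups overlapped. Tpi1 differed by -0.72, Gpi1 by -0.68, Aldoa and Pgam1 by -0.45 and -0.45, and Ldha by -0.37. Other members lost most of their difference: Slc2a1 was at -0.88, P4ha1 at -0.025, P4ha2 at -0.075, Eno1 at 0.10 and Pfkl at 0.39. Slc16a1 differed by 2.23 and Vegfa by 2.09, and by 1.24 and 0.82 without mouse 288, which gave 1 proliferating cell. The medians, -0.39 for the enzymes and transporters and -0.68 for the HIF pathway genes, were -0.10 and -0.19 without mouse 452. The median over all genes was 0.34 there, against 0.09 with that mouse. For Gapdh the unadjusted limma p was 0.103 without mouse 1184 and 0.0716 without mouse 1185, 0.0763 in edgeR and 0.0888 in DESeq2. For Slc16a3 it was above 0.05 without mouse 1184, 1185, 288, 360 or 452 (p = 0.0503 to 0.134) and in both count tools.

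Leaving out every leukocyte-rich cell kept 13 dormant cells of 4 mice and 23 proliferating cells of 6 mice. Now 12 of 19 enzymes and transporters had a negative difference (median -0.44) and 8 of 11 HIF pathway genes (median -0.61), while the median over all 10974 genes was 0.34, with 37.9% negative. In limma 0% of genes passed. An unadjusted p under 0.05 was found for 0 members with a negative difference, against 0.182% of all genes, and for 1 with a positive one, Slc16a3, against 1.37%. Slc16a3 had 2.36, 5.15 and 7.32 in the dormant cells kept, against 0, 0.61 and 4.28 in the proliferating cells kept, a difference of 3.71 (SE 1.46, unadjusted p = 0.0180, limma adjusted p = 1.00), and the groups overlapped. The unadjusted p was 0.118 in edgeR, 0.0621 in DESeq2, 0.0594 without mouse 1185, and 0.0978 and 0.0973 with leukocyte-rich cells set at 3 and 8 of 18 genes. Gapdh differed by -0.77 (SE 0.50), Tpi1 by -0.80 (SE 0.42), Gpi1 by -0.86 and Ldha by -0.29, whereas Eno1 and Pkm differed by 0.13 and 0.24. Bnip3 differed by -2.78 and Egln1 by -1.87, while Hif1a and Egln3 differed by -0.47 and -0.80. In this set the dormant mean of mouse 452 and the proliferating means of mice 268 and 288 are 1 cell each, and that of mouse 268 is the cell with the fewest genes above 0. Without mouse 268 Gapdh differed by -0.39, Tpi1 by -0.43, Gpi1 by -0.41, Bnip3 by -1.81, Egln1 by -0.91 and Egln3, with the other sign, by 0.21. The median of the HIF pathway genes was then -0.10, against -0.053 over all genes. Hif1a differed by 0.99 without mouse 369, Ldha by -0.10 without mouse 360 and Bnip3 by -1.11 without mouse 452. Without mouse 452 the median of the enzymes and transporters was -0.14, against 0.77 over all genes. Slc16a1 differed by 2.99 (SE 1.98), and by 1.92 without mouse 268. Vegfa differed by 1.84, and by 0.59 without mouse 288.

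**Figure D3:**
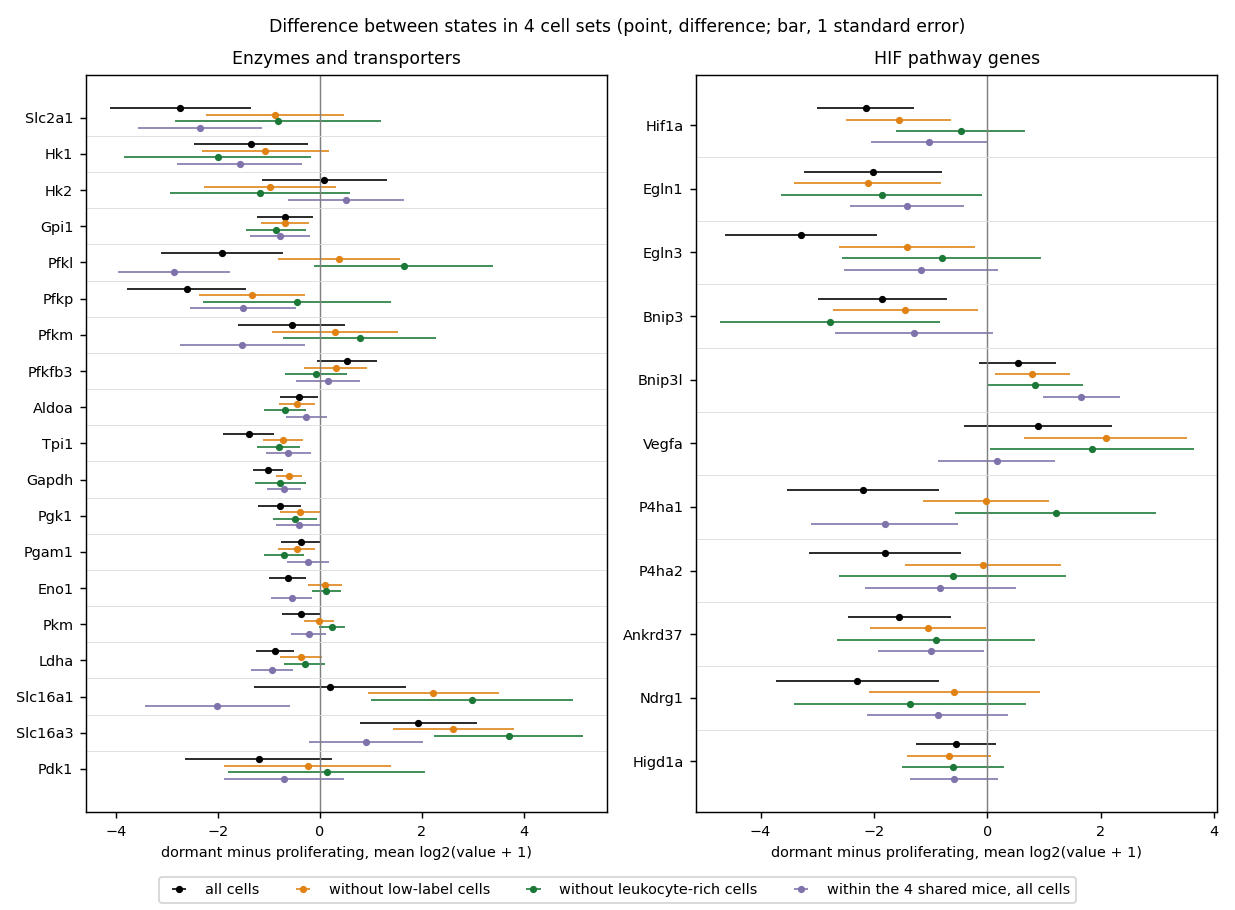
Difference of the mean log2(value + 1), dormant minus proliferating (x axis), for each tested member (y axis) by set of cells, with bars of 1 standard error. Gapdh, Tpi1, Gpi1 and Ldha are left of 0 with all cells and in both reduced sets, Slc16a3 and Bnip3l are right of 0 in all of them, and Pfkl and Eno1 change side when low-label cells are left out.

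The low-label cells themselves had fewer genes above 0, with a median of 5226.5. That median was 7941 in leukocyte-poor and 7767 in leukocyte-rich labelled dormant cells, and 7649 in proliferating cells. The part of this in the detection of members given next was not tested. Slc16a1 was detected in 2 of 6 low-label cells, in 20 of 22 labelled dormant and in 26 of 29 proliferating cells. Pfkl was detected in 2 of 6, 19 of 22 and 27 of 29 of the same classes, and Egln3 in 1 of 6, 17 of 22 and 22 of 29. Eno1 had a median of 3359 normalised reads in low-label cells, 10732 in labelled dormant and 10890.2 in proliferating cells. Some members were not low there. Hk2 had a median of 149.8 normalised reads in low-label cells, 29.2 in labelled dormant and 45.4 in proliferating cells, and Pgam1 4950.3, 3591 and 5013.

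Labelled dormant cells were closer to proliferating cells in some members and not in others. Gapdh had a median of 12682 normalised reads in labelled dormant cells, against 17142 in proliferating cells, and Ldha 6000.5, against 9199.9. Pkm had 10925, against 8628, and Vegfa 541, against 163. Bnip3l had 844, against 459, Slc16a1 1108, against 578, and Slc16a3 43.9, against 9.69. Cells of 1 mouse are not independent, so these medians carry no test, and the mice contribute unequally: 11 of the 22 labelled dormant cells are of mouse 1185 and 13 of the 29 proliferating cells of mouse 369. Of the 3 mice with labelled cells of both states, mouse 369 had a mean log2 of Gapdh of 14.17 in labelled dormant and 13.84 in proliferating cells and of Ldha of 13.75 and 13.58, so both were higher in dormant cells there. In mouse 452 these were 13.83 and 13.91 for Gapdh and 11.79 and 11.87 for Ldha, and in mouse 1185 13.69 and 14.49, and 12.31 and 12.64. Mki67, a marker of cycling cells, was detected in 12 of 22 labelled dormant and 22 of 29 proliferating cells. The mean log2 of 8 proliferation genes, Mki67 among them, had a median of 3.04 in labelled dormant and 7.91 in proliferating cells. It was 8.58 to 9.89 in the 4 labelled dormant cells of mouse 369. The part of Mki67 and of these genes in the values above was not tested. Over all members and cells 75.8% of values were above 0 in dormant cells (74.0% after thinning each cell to 945351 reads), against 78.6% (77.5%) in proliferating cells.

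**Figure D4:**
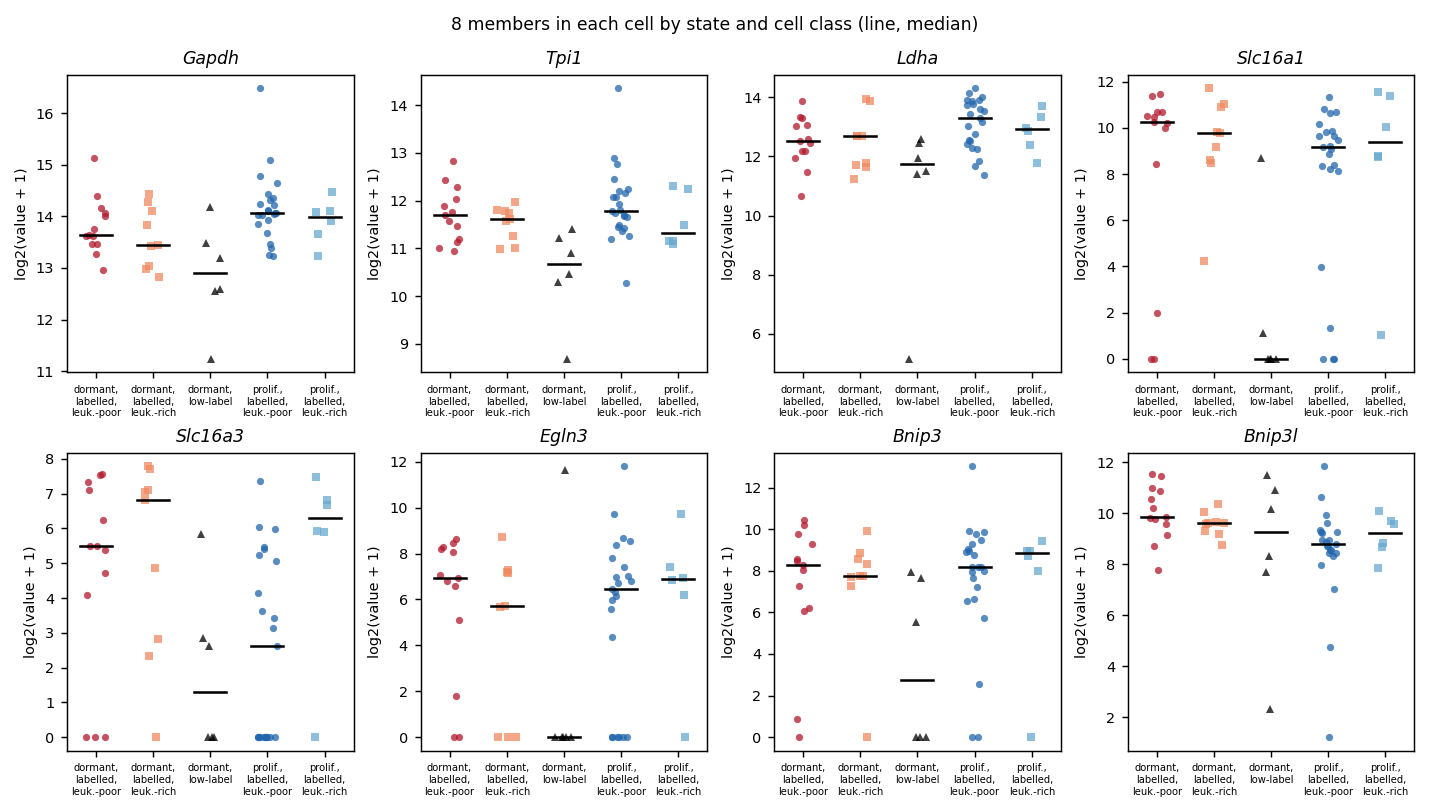
Values of selected members in each cell (y axis, log2(value + 1)), by state and cell class (x axis), for 13 labelled leukocyte-poor, 9 labelled leukocyte-rich and 6 low-label dormant cells and 23 leukocyte-poor and 6 leukocyte-rich proliferating cells. Low-label cells reach a median of 7794 normalised reads of Gapdh, against 12682 in labelled dormant cells.

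The sum of the enzymes and transporters took 0.862% to 2.16% of normalised values as a mean per mouse in dormant cells, with a median of 1.45%, against 1.45% to 4.89% and a median of 2.14% in proliferating cells. Without low-label cells the dormant range was 1.32% to 2.77%. A proliferating cell of mouse 268 stood far from the others. It had 2399 genes above 0, the fewest of all cells, and 8.57% of its values in the enzymes and transporters, with 91617 normalised reads of Gapdh, 8283 of Bnip3, 3559.8 of Egln3, 3463 of Ndrg1 and 589 of Adm. Without mouse 268 Gapdh differed by -0.87, Egln3 by -2.68 and Bnip3 by -1.26. The smallest share, 0.531%, was that of a low-label dormant cell of mouse 369, which had 37.6 normalised reads of Eno1 and 34.5 of Ldha beside 5350.0 of Hif1a and 3148 of Egln3.

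Across cells, the mean log2 of the enzymes and transporters followed the number of genes above 0 (Pearson r = 0.88 over 28 dormant cells and 0.82 over 29 proliferating cells). The mean log2 of the HIF pathway genes did so with r = 0.74 in dormant and 0.27 in proliferating cells. Both means had an r with each other of 0.78 in dormant and 0.43 in proliferating cells. Cells share mice and library batches, and the members are themselves among the genes counted, so these r are descriptions. With the number of genes above 0 as a covariate, the median difference was -0.71 for the enzymes and transporters and -2.02 for the HIF pathway genes. Over all genes it was -0.19, against -0.35 without the covariate. Among 9 enzymes detected in every cell, the 36 pairs had a median r of 0.29 in dormant, 0.42 in labelled dormant and 0.41 in proliferating cells. Eno1 and Ldha had 0.92, 0.67 and 0.69 in the same sets, and Aldoa and Gapdh 0.23, -0.087 and 0.86.

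**Figure D5:**
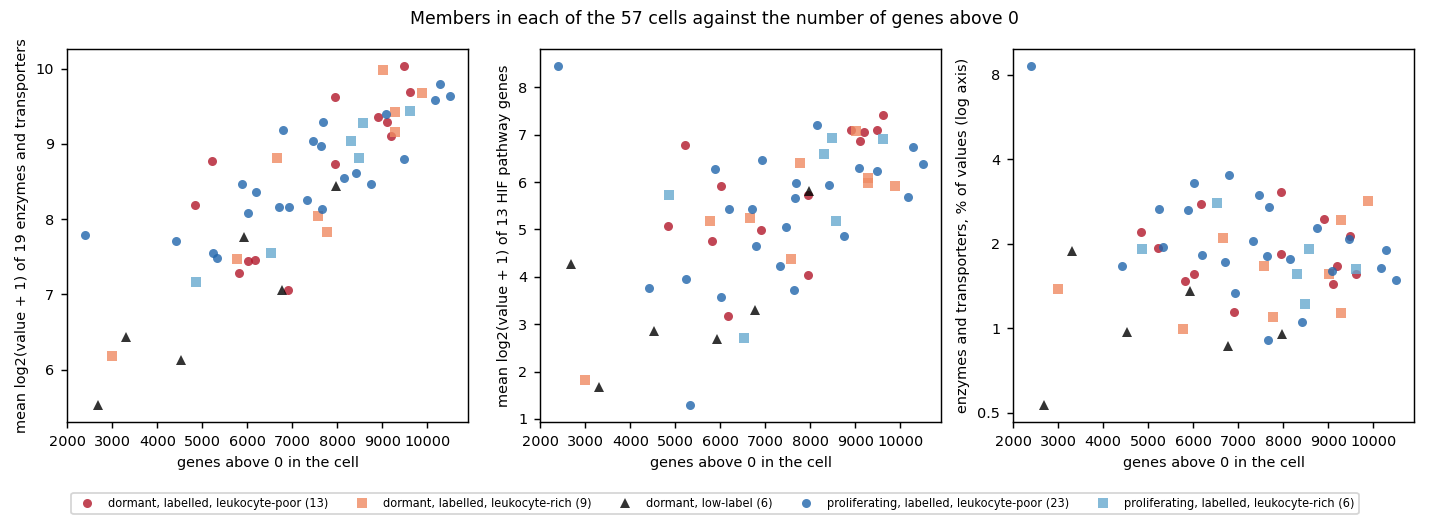
Mean log2(value + 1) of the enzymes and transporters and of the HIF pathway genes, and the enzymes' share of a cell's values, against the number of genes above 0, for 28 dormant and 29 proliferating cells. The enzyme mean follows the number of genes above 0, and the proliferating cell with 2399 genes has the highest share, 8.57%.

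Further genes of these pathways gave no limma call either. Of 21 other glycolysis genes 3 had a positive and 2 a negative difference at an unadjusted p under 0.05, against 3.28% and 6.22% of all genes, with a median of -0.33. Without low-label cells the median was 0.36, with 12 of 20 positive. Hk3, a hexokinase of myeloid cells, averaged 4.05 ± 4.11 in dormant and 0.081 ± 0.20 in proliferating cells (SD, n = 6 each), and was detected in 5 of 6 low-label cells, in 8 of 28 dormant cells and in 1 of 29 proliferating ones. Pgm2, a phosphoglucomutase, averaged 3.79 ± 3.10 in dormant and 7.44 ± 1.54 in proliferating cells, a difference of -3.65, and of -1.76 without low-label cells. Ldhb, the lactate dehydrogenase subunit that favours pyruvate, differed by 3.12 (SE 1.13, limma adjusted p = 0.443), by 1.65 within the shared mice, by 2.33 without low-label cells and by 3.54 without leukocyte-rich cells, so its sign was opposite to that of Ldha in each. Of 7 pentose phosphate genes 5 had a positive difference (median 0.82), 1 of them, the transaldolase Taldo1 (1.82, SE 0.81, limma adjusted p = 0.479), at an unadjusted p under 0.05. Tkt, the transketolase, differed by 2.31 and Pgd by 1.36. The highest means of Taldo1 and Tkt were those of dormant mice 244 and 360, whose cells are all low-label. Without low-label cells Taldo1 differed by 0.93 and Tkt by 0.86, and 0 of the group had an unadjusted p under 0.05. Within the shared mice 4 of 7 were negative, with a median of -0.23, against 76.5% of all genes and a median of -0.72. Of 9 genes of pyruvate dehydrogenase and pyruvate import 6 had a positive difference (median 0.33), with the mitochondrial pyruvate carriers Mpc2 and Mpc1 at 2.24 and 1.14 and the phosphatase Pdp1 at 2.36. The mean of Pdp1 was highest in the low-label dormant cells of mouse 360, and without low-label cells it differed by 1.54. Within the shared mice the group had the other sign, with 6 of 9 negative and a median of -1.11, against 76.5% and -0.72 over all genes. Of these genes 2 had a negative difference at an unadjusted p under 0.05, with Pdha1 lowest at -2.98, against 8.21% of all genes.

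Of 33 other HIF targets 6 had a negative and 1 a positive difference at an unadjusted p under 0.05, against 6.22% and 3.28% of all genes, with a median of -0.65. The median was -0.093 without low-label cells, with 2 negative at that p, and 0.053 without leukocyte-rich cells, with 0. Fam162a, a mitochondrial protein induced by hypoxia, averaged 6.66 ± 1.56 in dormant and 9.07 ± 0.58 in proliferating cells (SD, n = 6 each), a difference of -2.41 (SE 0.83, limma adjusted p = 0.437), of -2.0 without low-label cells and of -0.98 without leukocyte-rich cells. Ankzf1 differed by -2.81. Pygl, a glycogen phosphorylase, differed by 4.13 and was detected in 5 of 6 low-label cells, in 9 of 28 dormant cells and in 1 of 29 proliferating ones. Of 11 other regulators of the HIF pathway 7 had a negative difference (median -0.36), with medians of 0.19 without low-label cells and -0.62 within the shared mice. The medians over all genes were -0.35, 0.09 and -0.72 in the same order. Cul2, the scaffold of the VHL ubiquitin ligase, differed by -2.19 (SE 0.95, limma adjusted p = 0.477), and by -1.12 without low-label and 0.81 without leukocyte-rich cells. Eloc, a partner of Cul2 in that ligase, differed by -0.64 and Hif1an, the asparagine hydroxylase that acts on HIF, by -0.97.

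Outside all lists, the genes whose 12 mouse means were most like, by Pearson r, the mean log2 of the enzymes and transporters were Kbtbd4 (0.97), Zfp106 (0.95), Ciapin1 (0.94), Tulp3 (0.93) and Bcat1 (0.93). Those most like the HIF pathway genes were Pxdc1 (0.92), Fermt2 (0.92), Rabepk (0.92), Hoxa11os (0.91) and Sestd1 (0.90). They are the highest r of 11672 genes over 12 means that share cells of 4 mice, and are given as a description.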

How the data were processed

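Full-length RNA-seq libraries of sorted single RM1 cells were made with the SMARTer and Nextera XT kits and ERCC spike-ins, per the labels' protocols. STAR, RSEM, GRCm38 and mm10 are named in the submitters' processing notes, without roles. The deposited values are a signal: reads per gene and cell, normalised with BASiCS by the authors, per the series text, which states 28 dormant and 32 proliferating cells. All gene values were whole multiples of a step per cell (100% within 0.01 reads), which gave back the reads. Spike-ins were left out.

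The members and lists were chosen with earlier results of these data known. In each role the 2 members with the smallest p are given in full, and up to 3 genes of each further list are named by smallest p. A sample is 1 cell, and the labels give its mouse. Genes with values in 6 or more cells were tested with limma 3.58.1 (trend, robust) on means of log2(value + 1) per mouse and state, with Benjamini-Hochberg adjustment over all genes. Cells at 0 enter these means, so a difference is not a fold change. Means of mouse 244 (dormant) and mouse 288 (proliferating) rest on 1 cell each. Paired means come from the same animal, and their deviations correlated at 0.34, 0.16, -0.0056 and -0.013 in mice 369, 452, 360 and 1185. Which batch held a given cell was not used. Alternatives changed the pseudocount, filter, averaging, scaling, weights, thresholds and mice, or used edgeR 4.0.16 and DESeq2 1.42.0 with summed recovered reads. Their runs on the reduced cell sets, the leaving out of each mouse in those sets and of mouse 268 from the levels per kilobase, and 3 paralog pairs (Bnip3 and Bnip3l, Egln1 and Egln3, P4ha1 and P4ha2), were chosen after seeing the data. Gene positions and exon lengths are from GENCODE on GRCm38. The length of a gene is the union of all its annotated exons, such as 4133 bases for Gapdh and 13401 for Pfkp. Levels per kilobase, their order and the paralog shares depend on that choice. The fits were also run on simulated data (R 4.3.3, Python 3.11.15), with whole cells redrawn at random over all cells. That redrawing removes the likeness of cells of the same mouse, so it cannot show how the fits behave with such cells.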

Additional observations from a re-analysis of the deposited data

Results flagged for a closer look

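Among 60 groups of 6 mouse means (30 members in each state), 3 held a mean far from the other 5 by Dixon's ratio, and chance gives about 5% of groups. Tpi1 in dormant cells of mouse 244 had a mean log2(value + 1) of 8.68, with the next mouse at 10.8, and this mean is 1 low-label cell. In proliferating cells mouse 360 had a mean of 6.42 for Pfkm, with the next mouse at 2.36, and of 2.97 for Pfkfb3, with the next mouse at 0.41, each over 3 cells.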

How the results depend on the processing

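No member passed in any of the 28 alternatives to the comparison over all mice. limma and edgeR called 0 genes in each set of cells, while DESeq2 called 302 over all cells, 14 without low-label cells and 7 without leukocyte-rich cells, none of them a member. No member passed in limma with each mouse left out of the reduced sets. The median difference of the enzymes and transporters, -0.68 as reported, was 0.23 with leukocyte-rich cells set at 3 of 18 genes. It was -0.26 with those set at 8 of 18 genes and -0.11 with low label set at eCFP under 1000. It was -0.28 with edgeR, -0.32 with DESeq2, -0.35 under scaling by the median of ratios, and -0.85 to -0.58 with each mouse left out. That of the HIF pathway genes, -1.85 as reported, was -0.68 with means weighted by their cells, -0.68 without low-label cells, -0.61 without leukocyte-rich cells, -0.18 with those set at 3 of 18 genes, 0.14 with low label set at eCFP under 1000, -0.80 with edgeR, and -2.71 to -1.39 with each mouse left out. The median over all genes, -0.35 as reported, moved as well. It was 0.82 with leukocyte-rich cells set at 3 of 18 genes, 0.087 at 8 of 18 and 0.20 with low label at eCFP under 1000. It was 0.09 without low-label cells, 0.34 without leukocyte-rich cells and 0.050 with edgeR. The signs given below are not set against these medians. Fewer cells and mice enter where cells were left out, and otherwise the cause was not tested. Among the 30 members, 11 kept their sign in all 28 alternatives, among them Gapdh (-1.20 to -0.47), Tpi1 (-1.66 to -0.45), Ldha (-1.04 to -0.14), Egln3 (-4.51 to -0.33), Slc16a3 (0.90 to 3.71) and Bnip3l (0.019 to 1.66). Signs changed, with no call on either side, for these differences: with leukocyte-rich cells set at 3 of 18 genes Slc2a1 1.49, Hk1 0.073, Pfkl 1.09, Pfkm 2.02, Eno1 0.44, Pkm 0.40, Pdk1 3.70, Hif1a 0.72, Egln1 0.45, Vegfa -0.18, P4ha2 1.49 and Ndrg1 0.24; at 8 of 18 genes Hk2 -0.68, Pfkl 0.52, Pfkm 0.64, Pfkfb3 -0.14, Eno1 0.32, Pkm 0.12 and Pdk1 0.25; with low label at eCFP under 1000 Slc2a1 0.026, Hk2 -0.69, Pfkl 0.48, Pfkp 0.29, Pfkm 1.02, Eno1 0.33, Pkm 0.34, Pdk1 1.41, Hif1a 0.19, P4ha1 0.99, P4ha2 0.61 and Ndrg1 0.14; without leukocyte-rich cells Hk2 -1.18, Pfkl 1.65, Pfkm 0.79, Pfkfb3 -0.074, Eno1 0.13, Pkm 0.24, Pdk1 0.13 and P4ha1 1.20; and without low-label cells Hk2 -0.98, Pfkl 0.39, Pfkm 0.31 and Eno1 0.10. Weighting by cells gave Hk2 -0.17, Pkm 0.044, Slc16a1 -0.75, Pdk1 0.53 and P4ha2 0.69, the median over cells Hk2 -0.12, Slc16a1 -0.26 and Pdk1 0.061, the log2 of the mean Hk2 -0.11 and Slc16a1 -0.22, means of at least 2 cells Hk2 -0.037, Slc16a1 -1.22, Pdk1 0.40 and Vegfa -0.21, and a pseudocount of 0.1 Hk2 -0.14 and Slc16a1 0 (below 0 before rounding). Scaling by the median of ratios gave Aldoa 0.026, Pgam1 0.066 and Pkm 0.076, DESeq2 Pfkp 0.11 and Pkm 0.011 and edgeR Pfkp 0.13. With the mouse as a replicate block Slc16a1 differed by -2.01, and by -2.01 in the authors' table of 4 mice; the block changed no call. With each mouse left out Hk2 was -0.38 to 0.43, Slc16a1 -0.78 to 1.67, Vegfa -0.37 to 1.69 and Pfkm -0.99 to 0.48. Leaving out low-label and leukocyte-rich cells together is the same as leaving out the leukocyte-rich ones. Few cells and many values of 0 limit what can be said of Pfkm, Pfkfb3, Ankrd37, Car9 and Adm.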
